A study of Homo sapiens with 4 samples.

Results

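Members of the SIX-family and EYA genes, which encode partners in developmental gene control, are described here, 9 in all: SIX2, SIX3, SIX4, SIX5, SIX6, EYA1, EYA2, EYA3 and EYA4. They were taken by symbol from a table of 25690 genes, in which each had 1 row. Polyadenylated RNA was sequenced at day 7 from H9, an established line of human embryonic stem cells. By the series title the cells were non-neural ectoderm, the surface layer that gives epidermis and cranial placodes. The first group is 2 libraries whose genotype label reads TFAP2A knockout, called KO-labelled below, with 19305868 and 21797850 counts, and the second is 2 wild-type (WT) libraries with 17945210 and 17838204 counts. The series title also gives TFAP2A, and the table's column names give 2AKO, whereas the sample titles of the first group name TFAP2C. No clone, guide or culture protocol is given in the labels used here, so nothing shows that libraries with the same label are separate cultures. Each p-value sets the difference between the groups against the spread of such libraries, estimated with information from all genes, and that spread may be technical.

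SIX-family proteins bind DNA through a homeodomain and carry a further conserved region, named after them, to which EYA proteins attach. EYA proteins do not bind DNA themselves. They act as coactivators and also hold a tyrosine phosphatase domain, and DACH and TLE proteins recruited to the same complexes work mainly as corepressors. In vertebrate embryos genes of both families mark the pre-placodal ectoderm, a band around the anterior neural plate from which the lens, ear, nose, pituitary and cranial sensory ganglia form, and AP-2 factors such as TFAP2A are among the regulators of that ectoderm.

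Levels are given in CPM, the count scaled to library sizes adjusted with TMM factors. TFAP2A itself was at 133 and 121 CPM in the KO-labelled libraries, against 171 and 198 CPM in WT (log2 fold change -0.54, SE 0.07, adjusted p = 0.000125). This and every adjusted p below come from the quasi-likelihood test of edgeR, with Benjamini-Hochberg values over all 15643 genes tested. TFAP2C was at 8.89 and 5.77 CPM in the KO-labelled libraries, against 27.5 and 30.6 CPM in WT (log2 fold change -1.99, SE 0.17, adjusted p = 6.66e-06). Neither gene was at 0, and a total per gene cannot tell a transcript with a deleted exon from an intact one. These totals therefore cannot tell whether the genotype label or the sample titles name the targeted gene. Among all genes tested 21.9% were higher and 22.3% lower at an adjusted p under 0.05. The marker lists that follow are short for counts to be set beside those shares. Of 6 markers of non-neural ectoderm (KRT8, KRT18, CDH1, GATA3, DLX5 and TFAP2A), all were detected in every library and 5 were lower. All 6 summed to 1780 to 1835 CPM in the KO-labelled libraries against 2303 to 2540 CPM in WT. Of 4 neural markers (SOX1, PAX6, SOX2 and CDH2), all were higher, at 286 to 325 CPM summed in the KO-labelled libraries against 124 to 126 CPM in WT. That sum is mostly CDH2, at 265 and 248 CPM in the KO-labelled libraries against 110 and 112 CPM in WT. SOX1 was at 1.28 and 0.687 CPM against 0.0559 and 0.0567 CPM in WT, and SOX2 passed with an adjusted p of 0.0399. Of 4 neural crest markers (SOX10, FOXD3, PAX7 and NGFR), 2 could be tested, PAX7 and NGFR, and both were lower. All 4 summed to 3.05 to 3.97 CPM in the KO-labelled libraries against 9.58 to 12.1 CPM in WT, mostly from PAX7 and NGFR. SOX10 overlapped between the genotypes, with 4 and 3.5 counts in the KO-labelled libraries against 3 and 3 counts in WT. FOXD3 had 0 and 0 counts against 2 and 0 counts in WT. Of 3 endothelial markers 2 could be tested and both were lower, with a sum of 1.997 to 3.48 CPM in the KO-labelled libraries against 27.5 to 29.2 CPM in WT and PECAM1 at 0. Of 3 mesenchyme markers 2 were lower, PRRX1 by 5.87-fold (6.63 and 7.06 CPM in the KO-labelled libraries against 43.6 and 37.1 CPM in WT) and TWIST1 by 1.37-fold. The sum of all 3, 2816 to 3190 CPM in the KO-labelled libraries against 3286 to 3296 CPM in WT, is mostly COL1A1, which did not pass. The pluripotency genes POU5F1 and NANOG summed to under 1 CPM in all libraries. The part of these shifts in the results below was not tested. In bulk RNA, fewer cells of a type and less RNA per cell cannot be told apart.

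The promoters of 5 of the 9 genes, SIX2, SIX4, SIX6, EYA3 and EYA4, were found in RefSeq's promoter table (GRCh38.p14, 250 bases before to 50 after the start of each gene). SIX2 and SIX6 are shown first because they are the members seen in only 1 genotype, on opposite sides, and their promoters share 2 runs of at least 11 bases, printed in capitals. The SIX2 promoter lies at chr2:45009403-45009702 on the minus strand and the SIX6 promoter at chr14:60508896-60509195 on the plus strand.
SIX2: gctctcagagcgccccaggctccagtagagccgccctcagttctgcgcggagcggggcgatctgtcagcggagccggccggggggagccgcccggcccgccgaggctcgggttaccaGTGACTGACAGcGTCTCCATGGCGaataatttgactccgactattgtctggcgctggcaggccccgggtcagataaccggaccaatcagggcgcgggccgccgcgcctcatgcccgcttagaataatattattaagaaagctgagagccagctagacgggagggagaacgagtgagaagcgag
SIX6: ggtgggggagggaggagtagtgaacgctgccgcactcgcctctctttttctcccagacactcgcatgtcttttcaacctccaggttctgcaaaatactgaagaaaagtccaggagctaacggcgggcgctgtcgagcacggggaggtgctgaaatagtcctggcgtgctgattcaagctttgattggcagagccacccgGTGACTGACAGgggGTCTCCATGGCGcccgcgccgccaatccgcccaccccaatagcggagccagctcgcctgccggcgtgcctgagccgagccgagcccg
The first run, of 11 bases, begins 133 bases before the start of SIX2 and 51 bases before that of SIX6, and the second, of 12 bases, begins 121 and 37 bases before them. The runs stand in the same order, 1 base apart in SIX2 and 3 bases apart in SIX6. Searched on both strands, the first run was found in 23 of 35116 promoters (0.0655%) and the second in 16 (0.0456%). SIX2 and SIX6 were the only 2 promoters of that table with both runs on the gene's own strand.

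EYA3 and EYA4, the 2 EYA genes that did not pass the test, are shown with each match to GCCNNNGGC, a core sequence that AP-2 factors bind, in capitals. The EYA3 promoter lies at chr1:28088561-28088860 on the minus strand and the EYA4 promoter at chr6:133241107-133241406 on the plus strand.
EYA3: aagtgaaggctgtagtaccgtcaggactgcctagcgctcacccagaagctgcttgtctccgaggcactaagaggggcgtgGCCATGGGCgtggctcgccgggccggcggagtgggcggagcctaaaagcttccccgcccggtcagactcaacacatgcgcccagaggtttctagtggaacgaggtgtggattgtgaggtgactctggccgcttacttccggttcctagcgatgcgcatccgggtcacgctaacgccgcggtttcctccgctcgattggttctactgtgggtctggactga
EYA4: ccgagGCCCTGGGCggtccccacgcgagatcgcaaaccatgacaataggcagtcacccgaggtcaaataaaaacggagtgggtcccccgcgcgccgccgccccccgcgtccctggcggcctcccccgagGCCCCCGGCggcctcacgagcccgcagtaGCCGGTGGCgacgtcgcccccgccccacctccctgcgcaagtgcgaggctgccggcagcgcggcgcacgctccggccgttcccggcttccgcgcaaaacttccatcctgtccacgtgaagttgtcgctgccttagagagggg
The motif, which reads the same on both strands, occurred 1 time in EYA3, 3 times in EYA4 and 1 time in SIX2, and not in the windows of SIX4 and SIX6. It was in 23.2% of all 35116 promoters. The SIX-binding motif TCAGGTTTC (0.362% of promoters) and the shorter TGATAC (4.40% of promoters), searched on both strands, were in none of these 5 windows. A match is a description of the letters and not a bound site.

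Of the 9 genes, 6 had enough counts to test, and EYA1 and EYA2 were the only ones that passed, both lower in the KO-labelled libraries. The other 4 tested (SIX4, SIX5, EYA3 and EYA4) did not pass. With edgeR 0 were higher, as was so at an unadjusted p under 0.05 and with DESeq2 and limma-voom. Over all 15643 genes tested 44.2% passed, 21.9% higher and 22.3% lower. For either direction, 2 of 6 is not above the 44.2%. Both were lower, and beside the 22.3% lower among all genes 2 of 6 is a larger share, but 6 genes are few for such a count. The median log2 fold change of the 6 was 0.03, against 0.00 over all genes.

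**Figure D1:**
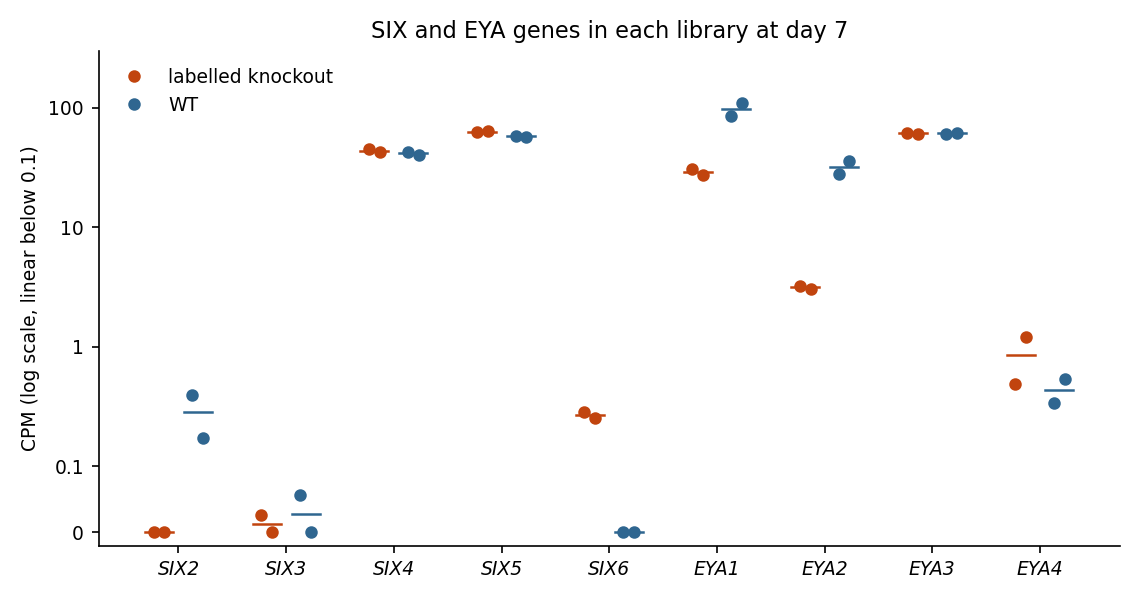
Level of each of the 9 genes in CPM (vertical axis, log scale with a linear part below 0.1) in the 2 KO-labelled libraries (left, orange) and the 2 WT libraries (right, blue) at day 7, with a bar at each mean. EYA1 and EYA2 sit lower in both KO-labelled libraries, SIX4, SIX5 and EYA3 sit at 40.3 to 63.3 CPM in all 4, and SIX2 and SIX6 are each at 0 in 1 genotype.

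EYA2 (chromosome 20, 45523263 to 45817492, plus strand, hg19), a coactivator gene expressed in cranial placodes, showed the larger of the falls. It had 63 and 66 counts, or 3.23 and 3.02 CPM, in the KO-labelled libraries, against 501.5 and 627 counts, or 28.0 and 35.6 CPM, in WT. The genotypes did not overlap, which was also so for 73.1% of all genes tested. EYA2 was 10.2-fold lower (log2 fold change -3.35, SE 0.15, 95% interval -3.67 to -3.03, adjusted p = 4.52e-10). By fitted fold change EYA2 was number 159 from the lowest of the 15643 genes tested.

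EYA1 (chromosome 8, 72109668 to 72274467, minus strand, hg19), whose loss in humans causes branchio-oto-renal syndrome with defects of the ear, neck and kidney, fell less. It had 30.9 and 27.4 CPM in the KO-labelled libraries, against 85.3 and 110 CPM in WT. Both KO-labelled libraries lay below both WT libraries, and the WT pair was the more spread of the pairs. EYA1 was 3.36-fold lower (log2 fold change -1.75, SE 0.14, 95% interval -2.08 to -1.41, adjusted p = 9.61e-05). The intervals of EYA1 and EYA2 do not overlap.

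EYA3 (chromosome 1, 28296855 to 28415148, minus strand, hg19), the broadly expressed member linked to the DNA damage response, stood at nearly the same level in all libraries. It had 61.8 and 60.01 CPM in the KO-labelled libraries, against 60.3 and 61.95 CPM in WT. Its log2 fold change was -0.00 (SE 0.06, 95% interval -0.14 to 0.13, adjusted p = 0.959). Its sign flipped with upper-quartile factors, with total counts and without either the second KO-labelled or the second WT library.

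EYA4 (chromosome 6, 133562495 to 133853258, plus strand, hg19), a gene mutated in inherited hearing loss and cardiomyopathy, was barely detected. It had 9.5 and 26.5 counts in the KO-labelled libraries, against 6 and 9.5 counts in WT, or 0.487 and 1.21 CPM against 0.336 and 0.539 CPM. The genotypes overlapped, and the higher KO-labelled library stood apart from the other 3. The log2 fold change was 0.93 (SE 0.51, 95% interval -0.17 to 2.03, adjusted p = 0.158), and 0.18 without the second KO-labelled library. EYA4 overlaps TARID, a long non-coding RNA gene on the opposite strand, over 29.9 kb, and no source used here tells if strand was taken into account in counting, so reads from that stretch cannot be assigned to either gene.

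SIX5 and SIX4 made up nearly all of the SIX-family signal, and neither passed. SIX5 (chromosome 19, 46268043 to 46272497, minus strand, hg19), known as the gene beside the myotonic dystrophy repeat, had 63.2 and 63.3 CPM in the KO-labelled libraries, against 58.4 and 57.3 CPM in WT. The genotypes did not overlap, but the log2 fold change of 0.13 (SE 0.06, 95% interval -0.01 to 0.26) had an adjusted p of 0.118. SIX4 (chromosome 14, 61176256 to 61190852, minus strand, hg19), which in mice acts in muscle, kidney and sensory neuron development, had 45.02 and 42.3 CPM in the KO-labelled libraries, against 42.8 and 40.3 CPM in WT. Those ranges overlapped (log2 fold change 0.07, SE 0.07, 95% interval -0.08 to 0.23, adjusted p = 0.444).

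SIX2, SIX3 and SIX6 were at the limit of detection and did not pass the low-count filter. SIX2 (chromosome 2, 45232324 to 45236542, minus strand, hg19), which in mice keeps nephron progenitors undifferentiated, had 0 counts in both KO-labelled libraries, against 7 and 3 counts in WT. Taking 3 counts over the group as the limit that a count of 0 allows (0.0726 CPM), SIX2 was at least 3.88-fold lower in the KO-labelled libraries. Without the first WT library 3 WT counts remain, which is at that limit, so no bound can then be given. SIX6 (chromosome 14, 60975938 to 60978525, plus strand, hg19), a factor of retina, hypothalamus and pituitary, showed the opposite, with 5.5 and 5.5 counts in the KO-labelled libraries against 0 and 0 counts in WT. Against the 3 counts allowed over the WT group (0.0845 CPM) it was at least 3.15-fold higher. These bounds take the counts of the genotype with reads as exact. When the low-count filter was dropped, with 20569 genes tested, SIX2 and SIX6 passed with adjusted p-values of 0.0152 and 0.0143, and both rest on at most 11 counts per genotype. SIX3 (chromosome 2, 45169037 to 45173216, plus strand, hg19), a forebrain and eye factor that represses WNT signalling, had 0.5 and 0 counts in the KO-labelled libraries against 1 and 0 counts in WT, too few to compare.

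Levels of different genes were compared in CPM per kb of transcript, using for each gene the GENCODE transcript whose span was nearest to that in the table. In the KO-labelled libraries the order of mean levels was SIX5 at 19.1, EYA3 at 10.2, SIX4 at 6.95, EYA1 at 6.74 and EYA2 at 1.16 CPM per kb. In WT it was EYA1 at 22.6, SIX5 at 17.4, EYA2 at 11.8, EYA3 at 10.3 and SIX4 at 6.61 CPM per kb. SIX4 and EYA1 overlapped between libraries in the KO-labelled pair, as EYA2 and EYA3 did in WT, so those neighbours in the order were not separated. The remaining 4 genes were at or below 0.149 CPM per kb on average in either genotype.

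The make-up of the EYA signal differed between the genotypes, while that of the SIX-family signal differed little. The 4 EYA genes summed to 18.8 and 17.8 CPM per kb in the KO-labelled libraries, against 40.3 and 49.2 CPM per kb in WT. EYA3 held 55.2% and 56.8% of that sum in the KO-labelled libraries, against 25.2% and 21.2% in WT. EYA1 held 37.97% and 35.7% in the KO-labelled libraries against 48.9% and 51.9% in WT, and EYA2 held 6.35% and 6.30% against 25.7% and 26.7%. The EYA1 level was 5.98 and 5.66 times the EYA2 level in the KO-labelled libraries, against 1.90 and 1.94 times in WT. The 5 SIX-family genes summed to 26.3 and 25.9 CPM per kb in the KO-labelled libraries, against 24.6 and 23.7 CPM per kb in WT, of which SIX5 held 71.5% to 73.6%. The EYA sum was 0.715 and 0.686 of the SIX-family sum in the KO-labelled libraries, against 1.64 and 2.07 times it in WT. None of these shares and ratios was tested. An exact permutation test of 2 against 2 libraries cannot go below p = 0.33, and no model was fitted to them.

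**Figure D2:**
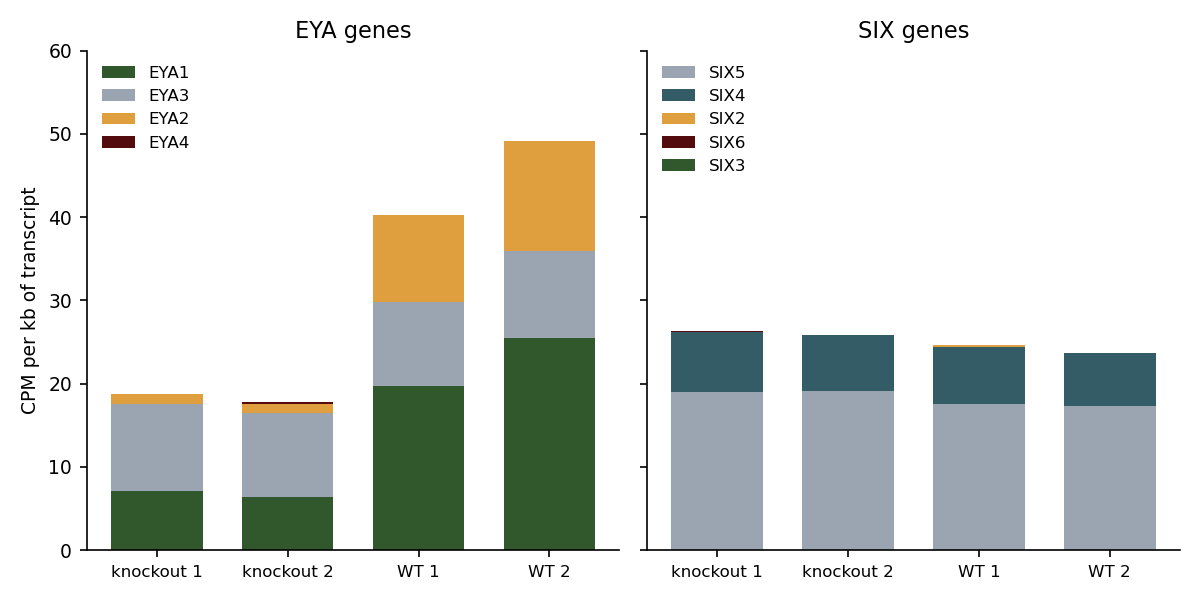
Stacked level of the 4 EYA genes (left panel) and the 5 SIX-family genes (right panel) in CPM per kb of transcript, one bar per library, KO-labelled before WT. The EYA bars reach 17.8 to 18.8 in the KO-labelled libraries and 40.3 to 49.2 in WT, with the EYA3 block about equal in all 4, and the SIX-family bars stay between 23.7 and 26.3.

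SIX-family genes lie in clusters, with SIX3 and SIX2 59.1 kb apart on chromosome 2 and SIX6 and SIX4 198 kb apart on chromosome 14. The nearest tested gene on each side of every member was therefore examined, leaving out the 9 genes themselves. Of these 14 neighbours, 2 rose, 3 fell and 9 did not pass, which is not above the 44.2% of all genes that passed, with a median log2 fold change of -0.01. Neither neighbour of EYA2 passed. SLC2A10, a glucose transporter gene 158 kb away, had 24.5 and 25.3 CPM in the KO-labelled libraries against 25.7 and 25.1 CPM in WT. ZMYND8, a chromatin reader gene 20.4 kb away, had 135 and 138 CPM against 124 and 134 CPM in WT. The neighbours of EYA1, LACTB2 (log2 fold change 0.01) and KCNB2 (-0.22), lie 528 kb and 1175 kb away and did not pass, and those of EYA3, XKR8 (0.17) and PTAFR (-0.31), did not either.

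Around SIX2 and SIX3 the flanking genes CAMKMT and SRBD1 both rose. CAMKMT, a calmodulin methyltransferase gene, was at 9.94 and 10.7 CPM in the KO-labelled libraries against 7.07 and 7.40 CPM in WT (log2 fold change 0.52, adjusted p = 0.00839), a call lost without the first WT library (adjusted p = 0.0558) and with DESeq2. SRBD1 was at 24.2 and 22.9 CPM against 17.5 and 15.5 CPM in WT (log2 fold change 0.51, adjusted p = 0.000899). C14orf39 (log2 fold change 0.64) and MNAT1 (-0.11), which flank SIX6 and SIX4, did not pass.

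DMPK, the myotonic dystrophy kinase gene that ends 470 bp upstream of SIX5 on the same strand in the table, was at 50.2 and 51.5 CPM in the KO-labelled libraries against 57.8 and 57.9 CPM in WT. It fell (log2 fold change -0.19, SE 0.07, adjusted p = 0.0323), but lost the call without any 1 of the 4 libraries (adjusted p from 0.0554 to 0.112) and with DESeq2 (0.155), and FBXO46 on the other side did not pass (0.18). TARID, which overlaps EYA4 and is known to activate the neighbouring TCF21 gene, had 0.307 and 0.137 CPM in the KO-labelled libraries against 1.03 and 1.05 CPM in WT. It fell (log2 fold change -2.18, SE 0.51, adjusted p = 0.00289), with an adjusted p of 0.0541 without the second KO-labelled library, and log2 fold changes from -2.82 to -1.70 with 1 library left out. The ribosomal protein gene RPS12, on the other side of EYA4, fell slightly (log2 fold change -0.16, adjusted p = 0.0165) and lost the call without the second KO-labelled or the first WT library (adjusted p = 0.0692 and 0.131).

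**Figure D3:**
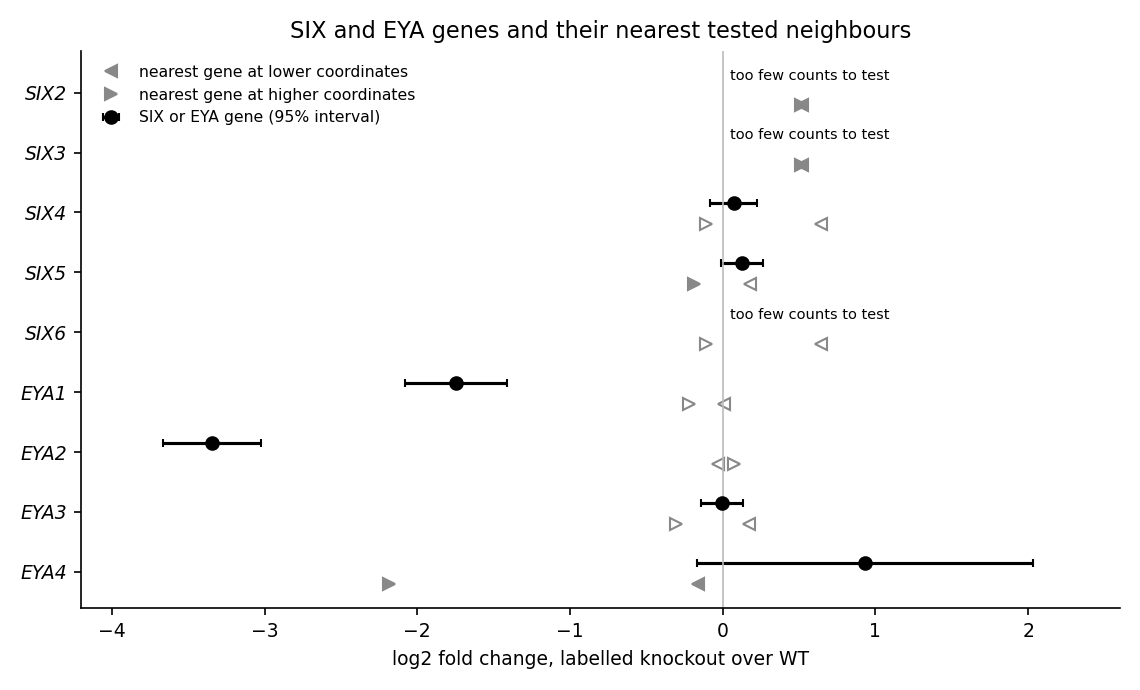
Log2 fold change, KO-labelled over WT, of each SIX-family and EYA gene (black, with its 95% interval) and of its nearest tested neighbour on each side (grey triangles, filled where the adjusted p was under 0.05). The SIX-family and EYA genes themselves were not taken as neighbours. EYA1 at -1.75 and EYA2 at -3.35 stand far from their own neighbours, which lie between -0.22 and 0.08, and TARID at -2.18 is the lowest of the neighbours.

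Genes for proteins that work with EYA and SIX-family factors moved both ways. Of 12 partner genes tested, 5 rose and 4 fell (75.0% passed, against 44.2% of all genes), with a median log2 fold change of 0.32. DACH1, the corepressor of the network, was at 102 and 99.6 CPM in the KO-labelled libraries against 64.8 and 71.8 CPM in WT, and rose (log2 fold change 0.56, SE 0.06, adjusted p = 6.63e-06). Its paralog DACH2 had 2.18 and 2.34 CPM against 2.43 and 1.13 CPM in WT and did not pass. ZMYM2, which in frogs was found to interact with a SIX-family protein, rose (log2 fold change 0.64, adjusted p = 1.62e-07), and so did its relative ZMYM4 (0.32).

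Another SIX-binding protein, SOBP, was at 8.30 and 5.84 CPM in the KO-labelled libraries against 11.4 and 10.3 CPM in WT. It fell (log2 fold change -0.62, adjusted p = 0.00834), but not without the second KO-labelled library (adjusted p = 0.0901) or the first WT library (0.0669). MCRS1 was the fifth partner to rise (log2 fold change 0.18), a call lost without the second KO-labelled library (adjusted p = 0.107) or the second WT library (0.206) and with DESeq2. Of the groucho-type genes, TLE1, TLE3 and TLE4 fell by 0.32, 0.34 and 0.31 on the log2 scale. TLE2 (log2 fold change 0.56) and TLE6 (0.41) did not pass. AES, a short relative of the TLE proteins, rose, at 153 and 159 CPM in the KO-labelled libraries against 102 and 102 CPM in WT (log2 fold change 0.61, adjusted p = 3.89e-07).

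PAX proteins act alongside them in ear, eye, kidney and muscle. Of 9 PAX genes, 3 could be tested and all passed, against 44.2% of all genes, though 3 genes are few for such a count. PAX2, a factor of ear and kidney, was at 6.99 and 7.15 CPM in the KO-labelled libraries against 0.727 and 1.02 CPM in WT (log2 fold change 3.01, adjusted p = 1.24e-07). PAX6, the eye and lens factor, was at 7.30 and 5.75 CPM against 2.29 and 2.67 CPM in WT (log2 fold change 1.39, adjusted p = 7.33e-05). PAX7, a neural crest and muscle precursor factor, fell to 0.64 and 0.367 CPM in the KO-labelled libraries, against 5.005 and 3.69 CPM in WT (log2 fold change -3.15, adjusted p = 1.79e-06). PAX7 thus went the way of EYA1 and EYA2, and PAX2 and PAX6 the other way. PAX6 is also among the neural markers above and PAX7 among the neural crest markers, so their values appear in both places.

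Factors that precede or accompany the family in the pre-placodal ectoderm mostly fell. Their list shares DLX5 and GATA3 with the non-neural ectoderm markers above. Among 12 that could be tested, 9 fell (75.0%, against 22.3% lower among all genes) and 3 did not pass, with 0 higher (0 also at an unadjusted p under 0.05 and in all 15 alternatives) and a median log2 fold change of -1.35. IRX1, an Iroquois homeobox factor, had 0.23 and 0.229 CPM in the KO-labelled libraries against 4.05 and 4.93 CPM in WT (log2 fold change -4.32, adjusted p = 1.27e-07). The BMP-responsive homeobox gene MSX1 had 7.94 and 8.34 CPM against 91.8 and 115 CPM in WT (log2 fold change -3.66, adjusted p = 3.63e-09). FOXI3, a forkhead factor needed for the ear placode in mice, had 1.51 and 0.871 CPM against 5.06 and 4.79 CPM in WT (log2 fold change -2.04, adjusted p = 1.85e-05), and IRX2 fell by 1.97 on the log2 scale. DLX3, DLX5, MSX2, IRX3 and GATA3 were the others that fell, of which GATA3 had an adjusted p of 0.0563 without the second KO-labelled library.

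Genes of single placodes split. Of 24 listed, 9 could be tested, of which 5 rose, 2 fell and 2 did not pass (77.8% passed, against 44.2% of all genes, median log2 fold change 1.35). GBX2, which in frogs and chicks marks the posterior placode region, had 91 and 66 counts in the KO-labelled libraries against 2.5 and 1 counts in WT, a ratio of 38.5 (95% exact counting interval 12.9 to 125). EMX2, a factor of the olfactory region and forebrain, was at 5.17 and 9.49 CPM against 1.23 and 1.28 CPM in WT (log2 fold change 2.57, adjusted p = 0.000135). MAF and ISL1, which act in lens and sensory ganglia, rose too (log2 fold changes 1.35 and 1.71). The lens gene FOXE3 had 0.461 and 0.619 CPM in the KO-labelled libraries against 3.55 and 2.86 CPM in WT (log2 fold change -2.52, adjusted p = 1.39e-05). OTX1, an anterior head factor, had 5 and 2.5 counts against 13 and 26.5 counts in WT (log2 fold change -2.65, adjusted p = 0.00221, and 0.0551 without the second WT library). Leaving out 1 library moved its log2 fold change between -3.49 and -2.06.

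**Figure D4:**
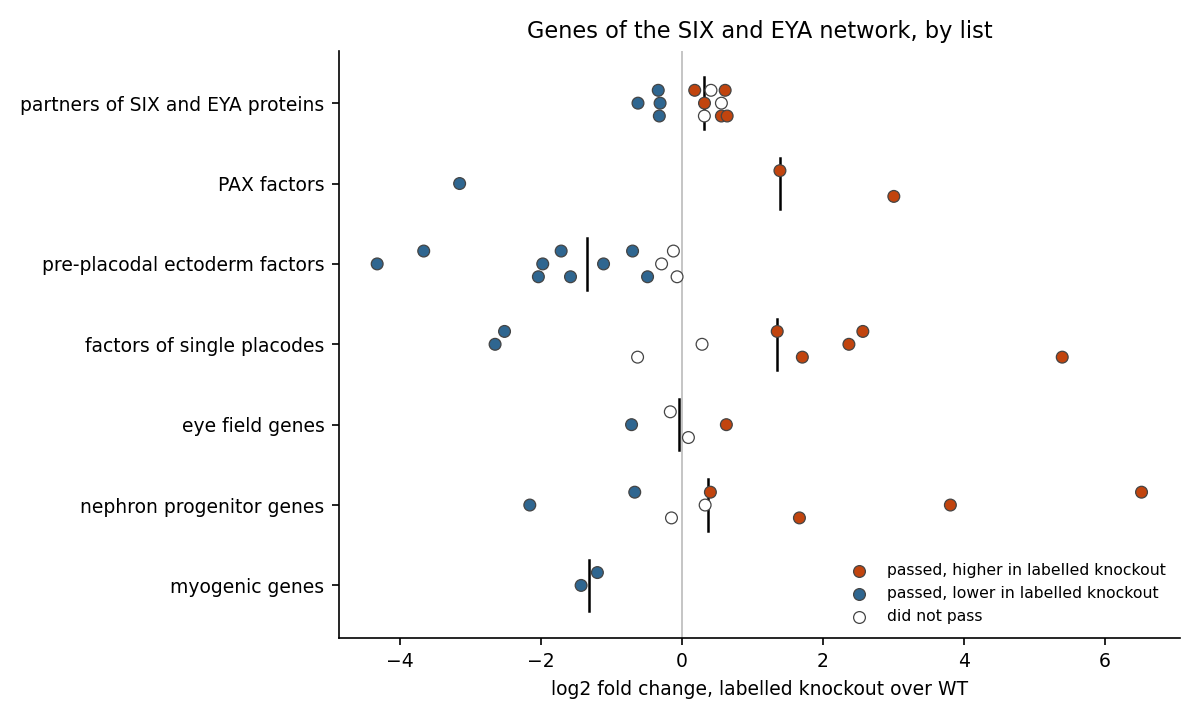
Log2 fold change, KO-labelled over WT, of every tested gene in 7 lists around the 9 genes, coloured by whether it passed and in which direction, with a line at each list's median. Pre-placodal factors lie at or below -0.07 throughout, with a median of -1.35, while partner genes lie on both sides of 0.

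The 9 genes or their relatives also act in the eye field, in nephron progenitors and in muscle precursors, and genes of those tissues were read for comparison. Of 8 eye field genes, 4 could be tested. LHX2 rose (log2 fold change 0.63, adjusted p = 0.0188, lost without the first KO-labelled library, at 0.0643, or the second WT library, at 0.163, and with DESeq2), and MITF fell (-0.71, adjusted p = 0.00488). RAX, which defines the eye field, had 0 counts in all libraries, as did NR2E1.

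Of 8 tested genes of nephron progenitors, 4 rose and 2 fell (75.0% passed, against 44.2% of all genes), with a median log2 fold change of 0.37. LHX1 had 174 and 170 counts in the KO-labelled libraries against 1.5 and 1 counts in WT, a ratio of 118 (40.6 to 1225). GDNF, the ligand gene that in mouse kidney is activated by EYA1 with its partners, had 25.5 and 43 counts against 2.5 and 2.5 counts in WT, a ratio of 11.8 (4.77 to 37.1). WT1 was at 65.8 and 93.6 CPM against 27.9 and 22.4 CPM in WT (log2 fold change 1.67, adjusted p = 0.0249, and 0.13 without the second WT library and 0.0726 without the low-count filter), and SALL1 rose by a smaller amount (log2 fold change 0.40). WNT4 fell (log2 fold change -2.16, adjusted p = 3.75e-07), and MEOX1 fell (-0.67, adjusted p = 0.0149), a call lost without the second KO-labelled library (0.106) or the first WT library (0.0796) and with DESeq2. The kidney-patterning genes HOXA11 and HOXC11 had 0 counts in all libraries. The 4 nephron progenitor markers (OSR1, SALL1, WT1 and CITED1) are all genes of this list, so they add no separate result. The 2 that were higher are the WT1 and SALL1 given above. All 4 summed to 115 to 137 CPM in the KO-labelled libraries against 58.1 to 63.0 CPM in WT, mostly from WT1 and SALL1.

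Of 8 myogenic genes only MET and DES could be tested, and both fell (log2 fold changes -1.20 and -1.43). Among all genes tested 22.3% were lower, and 2 genes are few for such a count. MET was at 55.7 and 48.9 CPM in the KO-labelled libraries against 115 and 125 CPM in WT. DES was at 2.79 and 3.78 CPM against 8.84 and 8.85 CPM in WT. The muscle determination gene MYF5 had 0 counts in all libraries, and MYOD1 and MYOG together were at 0.0458 to 0.102 CPM in the KO-labelled libraries and 0.0559 to 0.0567 CPM in WT.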

How the data were processed

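TopHat, HOMER, DESeq2 and the hg38 build are named, without versions, per the submitters' processing notes. The authors deposited a single table of estimated counts per gene for 4 libraries. All its values were multiples of 0.5 and 37.0% were not whole numbers. How reads were counted, on which annotation and with what strand setting no source used here states. Of 23020 genes found in a GRCh38 annotation, 4.32% began within 2000 bp of their GRCh38 start, and contig names in 26 rows followed hg19, so table coordinates are printed as hg19.

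Counts were rounded to whole numbers, filtered with filterByExpr (15643 genes left), scaled with TMM and tested by quasi-likelihood in edgeR 4.0.16 (robust glmQLFit, then glmQLFTest) in R 4.3.3, on genotype alone, with Benjamini-Hochberg adjustment at 0.05. The standard error is the log2 fold change over the square root of F, and the 95% intervals use the test's degrees of freedom. DESeq2 1.42.0 and limma 3.58.1 (voom) were alternatives. Counting intervals are exact (Clopper-Pearson) and cover counting error only. Replicates differed beyond sampling noise, the chi-square over its degrees of freedom being 4.18 for the KO-labelled pair and 4.33 for the WT pair.

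The members and the gene lists were chosen with earlier results of these data known. Named genes were the 9 members, their nearest tested neighbours, the 5 nearest patterns to EYA2 and EYA1, and for each list the 4 largest changes that passed (the 2 highest levels where fewer than 2 passed). Any other gene in the text was picked with its values already seen. Some genes of these families and lists are not reported here.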

Additional observations from a re-analysis of the deposited data

How the results depend on the processing

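EYA1 and EYA2 were lower and past the threshold under the 15 alternatives, with log2 fold changes of -1.93 to -1.55 for EYA1 and -3.51 to -3.17 for EYA2 (adjusted p at most 0.0114 and 3.45e-06). DESeq2 with and without independent filtering gave the same values. With 1 library left out, the lone library of its genotype is assumed to vary like the other pair. Among the 9 genes the number higher was 0 in all of them except without the low-count filter, where it was 1 (SIX6), and the number lower was 2 except there, where it was 3 (SIX2 added). EYA4 could not be fitted with 0.5 counts rounded down or with at least 1 CPM in 2 libraries.

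Signs changed only for genes that did not pass. The log2 fold change of EYA3 was 0.0098 with upper-quartile factors, 0.0147 with total counts and -0.0292 to 0.0183 with 1 library left out. Leaving out 1 library gave -0.158 to 0.181 for LACTB2, -0.52 to 0.0144 for KCNB2 and -2.12 to 0.54 for PTAFR. The cause was not tested. Of 1030 values of 69 genes under the alternatives, 989 kept direction and call and 32 lost the call.

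The replicate number as a block left 3050 genes higher and 3154 lower, against 3427 and 3492, kept EYA1 and EYA2 (log2 fold changes -1.74 and -3.34) and took the call of DMPK (adjusted p = 0.0518). The correlation of same-numbered deviations was -0.05, so the data do not show that equal numbers mark a pair, and a shared batch or day was not tested. Undivided by transcript length, EYA3 held 64.1% and 65.5% of the EYA counts in KO-labelled libraries and 34.6% and 29.7% in WT. Depth limits SIX2, SIX3, SIX6 and EYA4, which had at most 36 counts per genotype.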

Other observations

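The 5 tested genes whose levels in the 4 libraries lay nearest to those of EYA2 (Euclidean distance of log2 of CPM + 0.5, from 0.18 to 0.47) were GPR155, B3GALT5, KCNV1, GFRA2 and MTUS2. GPR155 had 3.25 and 2.91 CPM in the KO-labelled libraries against 25.6 and 38.6 CPM in WT. B3GALT5, a galactosyltransferase gene of glycolipid synthesis, had 3.23 and 3.51 CPM against 27.3 and 31.98 CPM in WT. KCNV1 encodes a silent potassium channel subunit and GFRA2 the neurturin receptor, and their log2 fold changes were -3.23 and -3.65.

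Nearest to EYA1, at distances of 0.42 to 0.50, were PROM2, TRIP10, ITGA9, SLC35F2 and CXCL12. PROM2, a membrane protrusion gene of epithelia, had 25.8 and 24.1 CPM in the KO-labelled libraries against 82.5 and 91.1 CPM in WT. The chemokine gene CXCL12 had 33.2 and 31.9 CPM against 82.8 and 81.7 CPM in WT. No gene was on both lists. Since the distance chose these genes, their likeness is a description over 4 libraries.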
